A study of Mus musculus with 33 samples.

Results

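Histone genes were followed through 33 RNA sequencing libraries from mouse embryonic stem cells that had been differentiated for 4 days as embryoid bodies in serum-free medium. Members were the genes whose symbol begins with a core or linker histone root (Hist1h to Hist4h, H1f, H2ac, H2bc, H3c, H4c, H2af, H2az, H2ax or H3f3). The rule used no measured value and found 70 of the 21844 genes counted. By symbol, 61 are replication-dependent histone genes (H1f1 to H1f6 and the H2ac, H2bc, H3c and H4c genes) and 9 are replacement histone genes (H1f0, H1f7, H1f8, H1f10, H2ax, H2az1, H2az2, H3f3a and H3f3b). Another 10 genes matched the pattern in the reference table and were not among the genes counted, 7 of them pseudogenes.

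From day 2 the embryoid bodies, dispersed, had been given Activin A, a ligand of the TGF-beta family that drives streak and endoderm fates, or SB-431542, an inhibitor of its type I receptors. SFM denotes the untreated control (2 libraries), SB the inhibitor (1 library, dose not given in the labels), and AA3, AA15 and AA100 Activin A at 3, 15 and 100 ng/mL (1, 2 and 1 libraries). DP-seq, the method of these 7 libraries, builds its amplicons from a designed set of heptamer primers. AA3 mRNA was also diluted for DP-seq to 10 ng, 1 ng, 100 pg, 50 pg, 10 pg and 1 pg (2 libraries each), sequenced once from about 100 pg as a paired-end DP-seq library, and amplified from about 500 pg with 3 primer sets designed to suppress ribosomal transcripts (1 library each). AA3 and AA100 were compared by standard RNA-seq from 20 ng (2 and 1 libraries), DP-seq from 50 pg (1 and 2) and SMART-seq, which amplifies full-length poly(A) cDNA, from 50 pg (2 and 2). All replicate pairs but SFM are labelled technical, and whether the SFM pair are separate cultures is not stated, so p-values may measure technical spread alone. SFM replicate 2 is labelled as spiked with yeast transcripts and stood far from SFM replicate 1 (chi-square per degree of freedom 618, against 1.32 to 71.5 in the other pairs). In the standard libraries from AA3, 7 of 8 pluripotency and epiblast markers, 8 of 9 streak and mesoderm markers and 7 of 8 endoderm markers reached 1 CPM, while the blood, muscle and trophoblast markers summed to 7.75 and 8.95 CPM with Hbb-bh1, Hba-x and Elf5 at 0. Of 8 neuroectoderm markers, 7 had counts enough to be tested across the standard libraries of AA3 and AA100.

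Replication-dependent histone genes supply the bulk of nucleosomal and linker histones during S phase. Their transcripts are intronless and usually end at a conserved stem-loop bound by Slbp in place of a poly(A) tail. Most replacement genes are expressed through the cell cycle and give polyadenylated mRNA, while the transcript model of H2ax also holds a stem-loop. H3f3a and H3f3b encode the same H3.3 protein, and H2az1 and H2az2 encode the H2A.Z variants found at promoters and enhancers. H2ax encodes the variant phosphorylated at DNA breaks, and H1f0 and H1f10 encode linker variants. Per the labels' protocols, mRNA was isolated from total RNA before cDNA was made.

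All 70 members were matched to GENCODE M21 transcript models (GRCm38). Of the replication-dependent models, 51 lie on chromosome 13 and 10 on chromosome 3, and 58 have a single exon. A match to the stem-loop consensus, searched by name on the transcript strand, stood anywhere in 41 of 61 replication-dependent models, in 1 of 9 replacement models and in 0.425% of 21901 protein-coding genes. Within the last 100 bases it stood in 21 replication-dependent models, in 0 replacement models and in 0.1% of protein-coding genes. The poly(A) signal AATAAA stood in the last 50 bases of 9 replication-dependent models, 6 replacement models and 59.2% of protein-coding genes. Many histone models end with the coding region or run far past it (312 to 7425 bases among replication-dependent genes), so a missing match concerns the model and not the gene. These sites are shown to set a stem-loop near the end of the model (H2ac11, H4c8) beside stem-loops far from it (H1f2, H2ax), and the capitals mark the stem-loop match, 5′ to 3′.
H2ac11: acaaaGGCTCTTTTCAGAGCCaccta
H4c8: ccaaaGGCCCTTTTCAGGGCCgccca
H1f2: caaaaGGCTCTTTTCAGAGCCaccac
H2ax: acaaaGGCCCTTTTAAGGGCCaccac

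In H2ac11 and H4c8 the stem-loop match stood 23 and 46 bases from the end of the model. In H1f2 it stood 840 bases and in H2ax 822 bases from the end, so both models run on past it. The following sites hold the poly(A) signal, in capitals, of the 2 most counted replication-dependent genes and of 3 replacement genes that have one in the last 50 bases.
H1f2: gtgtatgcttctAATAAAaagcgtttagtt
H2bc21: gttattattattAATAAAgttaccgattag
H3f3b: ataggccttacaAATAAActagtaagtttg
H3f3a: aatttgaaaaatAATAAAagtaccaataga
H1f0: ttaaaactttaaAATAAAactggaaaggaa

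H1f2 (chromosome 13, 23738808 to 23740367, plus strand) thus has a stem-loop and, 20 bases from its end, a poly(A) signal. H2bc21 (chromosome 3, 96221119 to 96223738, plus strand) is called replication-dependent by its symbol, but its model holds no stem-loop match and has a poly(A) signal 16 bases from its end. H2az1 (chromosome 3, 137864487 to 137866922, plus strand) and H3f3b (chromosome 11, 116021961 to 116024504, minus strand) have 5 and 4 exons, unlike the single-exon cluster genes.

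Replication-dependent genes received few counts. Over all 33 libraries they received 7579 counts, against 2510265 for the 9 replacement genes and 370971009 for all genes. Levels are given as CPM, counts relative to the library size after TMM scaling. The summed level of these genes lay between 4.34 and 82.99 CPM per library (median 19.2), against 1373 to 23407 CPM (median 3395) for the replacement genes. Both extremes of the replication-dependent sum came from the smallest inputs: 10 pg replicate 2 with 12 counts and 1 pg replicate 2 with 29 counts. Counts of replacement genes exceeded those of replication-dependent genes by 109.9 to 2217 times in a library, with a median of 166.7.

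**Figure D1:**
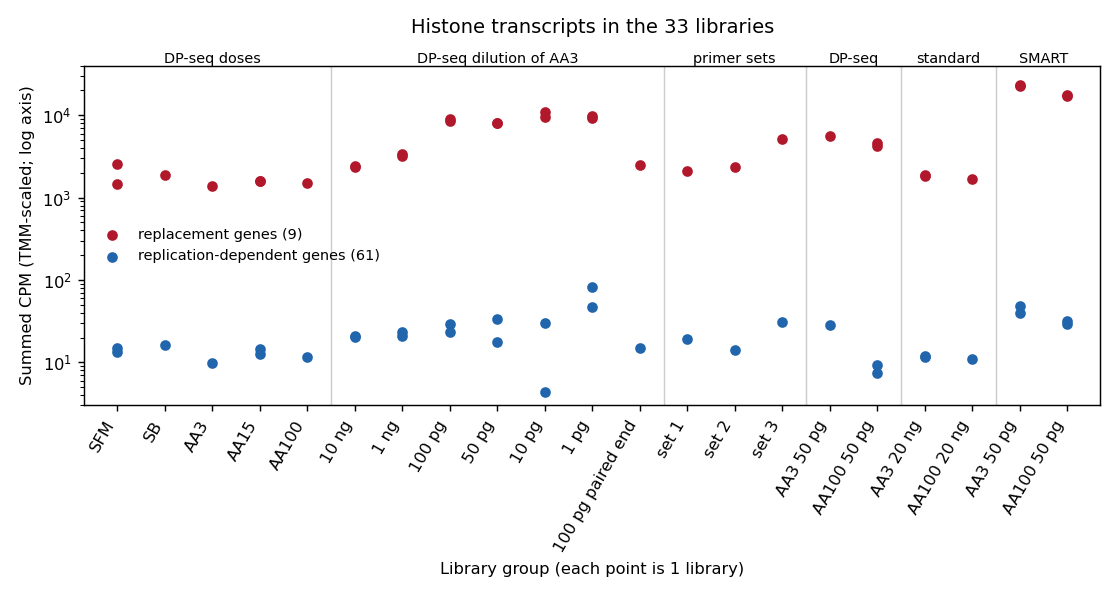
Summed level of the 61 replication-dependent and the 9 replacement histone genes in each library (CPM scaled by TMM, log axis), by library group. Each point is 1 library. The replacement sum lies above the replication-dependent sum in all 33 libraries, and the 4 SMART-seq libraries hold the highest replacement sums (17308 to 23407 CPM).

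Of the 61 replication-dependent genes, 14 had 0 counts in every library, 34 had 1 to 99 counts in all, and 13 had at least 100. A library held counts for 3 to 32 of them (median 13). H1f2, a somatic linker histone, had 2312 counts and H2bc21 had 1750, together 53.6% of the counts of the group. By family, the H1 genes had 3219 counts over 6 members, all 6 detected, and the H2B genes 2271 over 15 members, 12 detected. The H2A genes had 1560 counts (12 of 17 detected), H4 394 (8 of 11) and H3 135 (9 of 12).

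These families are made of near-identical copies, and the deposited values are unique read counts. To describe this, each transcript model was cut into overlapping 32-base words and each word was looked up in all other genes of GENCODE M21. The median replication-dependent model had 42.2% of its words in no other gene (range 0 to 100), against 99.2% for replacement models (65.6 to 100). In 8 replication-dependent models the share was under 10%, and in H2ac19 and H3c14 no word was unique. Genes with 0 counts had a median of 32.6% unique words, genes with 1 to 99 counts 41.2%, and genes with at least 100 counts 66.5%. H2ac23 received 549 counts with 6.2% unique words, and 1 gene with 0 counts had 79.8% unique words. A poly(A) signal in the last 50 bases was found in 3 of the 14, 3 of the 34 and 3 of the 13 genes, and a stem-loop in 11, 21 and 9. The parts of sequence sharing, poly(A) selection and true level in these low counts were not tested.

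**Figure D2:**
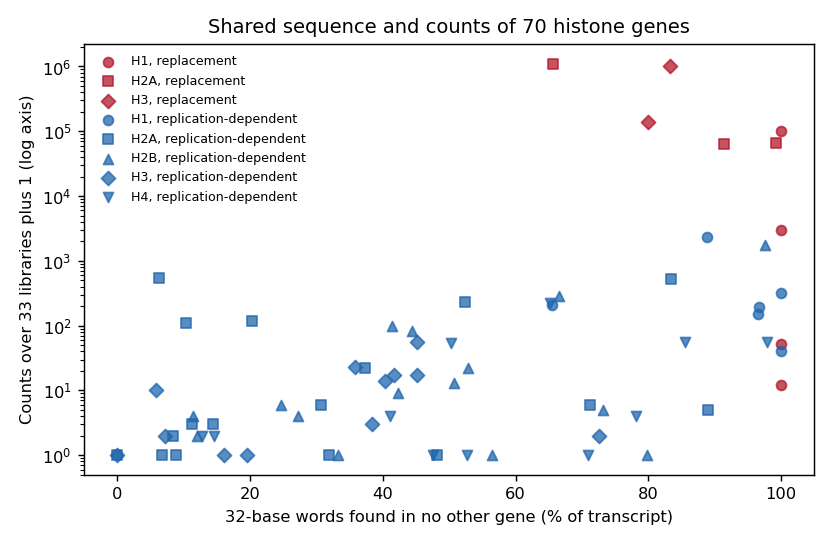
Share of 32-base words found in no other gene (horizontal, % of the transcript model) and counts over the 33 libraries plus 1 (vertical, log axis) for the 70 histone genes, by family and class. Replacement genes lie at 65.6% or more, while replication-dependent genes spread from 0 to 100%.

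Among replacement genes, H2az1 had 1108686 counts over all libraries, of which 608132 and 432711 came from SMART-seq of AA3 and AA100. H3f3b had 1029383, of which 237383 and 222829 came from those libraries. H3f3a had 139053, H1f0 100331, H2az2 65562, H2ax 64154 and H1f10 3034. The oocyte linker H1f8 had 11 counts and the testis linker H1f7 had 51, and neither entered a comparison. Levels per length were compared only in libraries that do not start from designed primers. In the standard libraries from AA3, H2az1 stood at 624 ± 1.18 CPM per kb (SD, n = 2), H3f3b at 332 ± 4.70, H1f0 at 91.7 ± 1.80 and H2ax at 89.7 ± 1.90, and the last pair did not differ beyond its spread. H2az2 (48.9 ± 1.59), H3f3a (37.1 ± 1.74) and H1f10 (26.0 ± 1.15) followed, each apart from its neighbour by more than the SDs. SMART-seq of AA3 gave another order: H2az1 at 14401 ± 246 CPM per kb, H3f3b at 3016 ± 60.2, H2az2 at 464 ± 44.3, H3f3a at 253 ± 4.34, and H2ax (56.1 ± 4.35) and H1f0 (53.0 ± 11.8) within each other's spread.

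**Figure D3:**
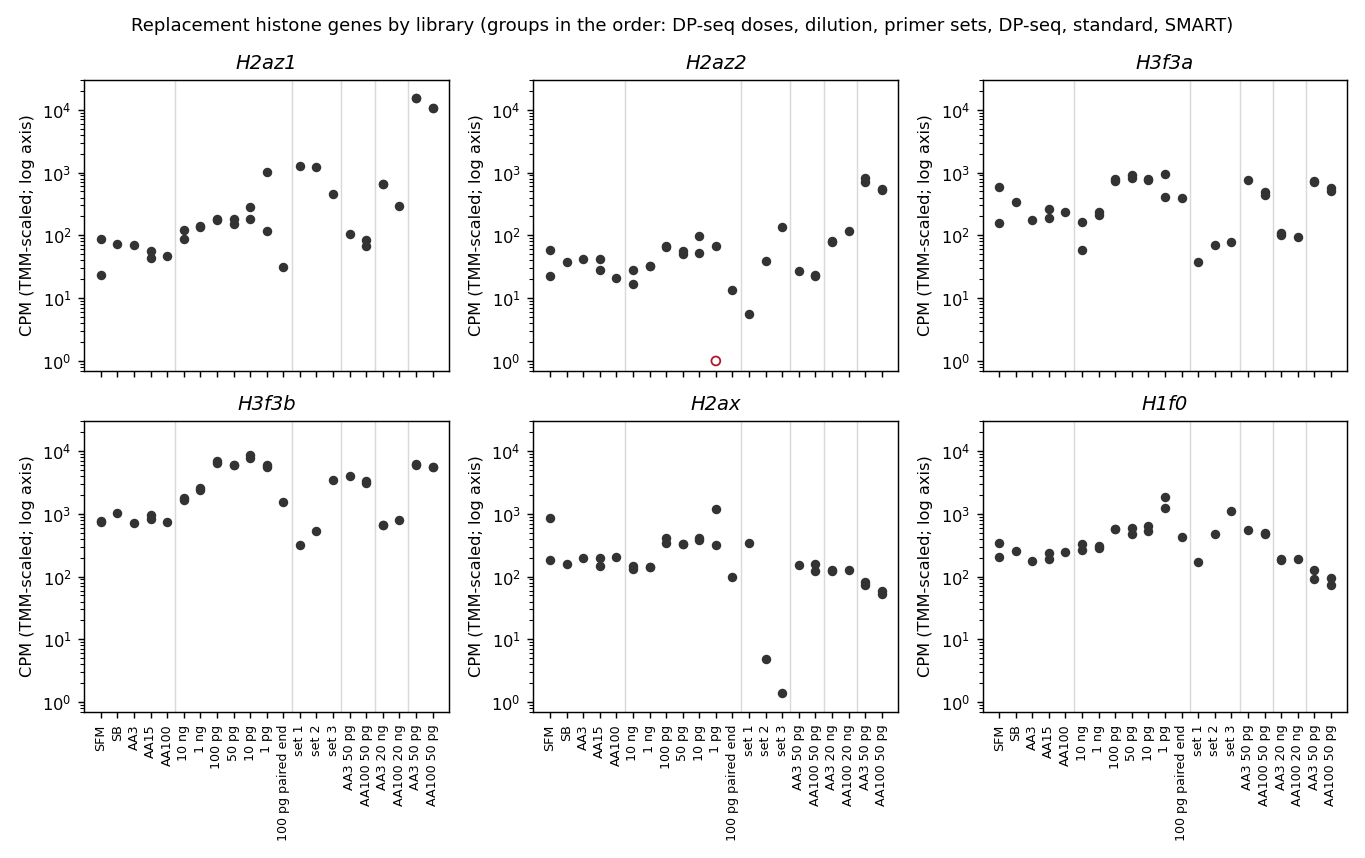
Level of 6 replacement histone genes in each library (CPM scaled by TMM, log axis), by library group. Each point is 1 library, and the open red circle at the foot of the H2az2 panel marks 1 pg replicate 2, where H2az2 had 0 counts. H2az1 is highest in the 4 SMART-seq libraries (10633 to 15581 CPM), and H2ax falls to 4.89 and 1.39 CPM with primer sets 2 and 3.

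The first comparison set library methods side by side for AA3 mRNA. The inputs differ (20 ng for standard RNA-seq, 10 ng and 50 pg for DP-seq, 50 pg for SMART-seq), so against standard RNA-seq method and input cannot be told apart, and only DP-seq and SMART-seq at 50 pg are matched. Within DP-seq alone, H3f3b changed by 1.84 from 10 ng to 50 pg (log2; adjusted p = 3.70e-04, edgeR). H2az1, the main H2A.Z gene in most of these libraries, differed between all methods. It stood at 666 and 668 CPM in the standard libraries, 120.4 and 86.3 in DP-seq from 10 ng, 150.1 and 179 in DP-seq from 50 pg, and 15581 and 15209 in SMART-seq. The 4 pairs did not overlap. A further DP-seq library of AA3 from 50 pg, outside this comparison, gave 105 CPM, between the libraries from 10 ng. Against standard RNA-seq, SMART-seq gave a log2 change of 4.65 ± 0.19 (SE, as for all changes) for H2az1 (25.03-fold; adjusted p = 3.26e-07, edgeR quasi-likelihood test, Benjamini-Hochberg), and DP-seq from 10 ng a change of -2.59 ± 0.18 (adjusted p = 1.39e-05). Against SMART-seq at the same 50 pg, DP-seq lay 95.2-fold lower (log2 -6.57 ± 0.21, adjusted p = 1.38e-07).

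H3f3b, the major source of H3.3 mRNA here, stood at 668 and 654 CPM in standard RNA-seq, 1627 and 1779 in DP-seq from 10 ng, 6058 and 5971 in DP-seq from 50 pg and 6095 and 5925 in SMART-seq. Standard RNA-seq was lowest, and the 50 pg pair of the dilution series coincided with SMART-seq. The separate DP-seq library of AA3 from 50 pg, outside this comparison, stood lower than both, at 3981 CPM. H3f3b rose by 3.30 ± 0.08 in SMART-seq against standard RNA-seq (adjusted p = 6.41e-08) and by 1.48 ± 0.07 in DP-seq from 10 ng (adjusted p = 2.54e-06), while DP-seq and SMART-seq at 50 pg differed by -0.02 ± 0.07 (adjusted p = 0.802). H3f3a, which encodes the same protein, stood at 109 and 102 CPM in standard RNA-seq, 163 and 57.6 in DP-seq from 10 ng, 929 and 831 in DP-seq from 50 pg, and 711 and 728 in SMART-seq. It rose by 2.89 ± 0.42 in SMART-seq against standard RNA-seq (adjusted p = 5.50e-04) and did not pass the test in DP-seq from 10 ng (0.17 ± 0.40) or between the 50 pg methods (0.27 ± 0.39, adjusted p = 0.581).

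H2az2 rose by 3.36 ± 0.19 in SMART-seq against standard RNA-seq (adjusted p = 1.76e-06) and fell by 1.69 on the log2 scale (SE 0.19) in DP-seq from 10 ng (adjusted p = 2.21e-04). The linker H1f0 and H2ax went the other way in SMART-seq, with changes of -0.67 ± 0.20 (adjusted p = 0.0188) and -0.56 ± 0.11 (adjusted p = 0.00311). In the dilution pair from 50 pg they were higher than in SMART-seq, by 2.25 ± 0.20 and 2.08 ± 0.12. The separate DP-seq library of AA3 from 50 pg held H2ax at 153 CPM, against a mean of 333 in that pair and 77.6 in SMART-seq. Its H1f0 stood at 542 CPM, against a mean of 527 in the pair. H1f10, the other replacement linker, was at 30.6 and 32.6 CPM in standard RNA-seq, 4.36 and 6.28 in SMART-seq and at most 1.47 in DP-seq from 10 ng. Its changes were -2.45 ± 0.66 in SMART-seq (adjusted p = 0.0130) and -4.77 ± 0.79 in DP-seq from 10 ng (adjusted p = 0.00182). Without either standard library, H1f10 and H1f0 did not pass in SMART-seq (adjusted p from 0.0559 to 0.0949), nor did H1f0 without SMART-seq replicate 2 (-0.43, adjusted p = 0.101).

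5 replication-dependent genes with 50 or more counts were higher in SMART-seq than in standard RNA-seq. H1f1 had 4 and 6 counts in the standard libraries and 62 and 110 in SMART-seq (4.18 ± 1.09, adjusted p = 0.0141), and 0 in DP-seq from 50 pg, at least 16.8-fold lower than SMART-seq against a floor of 3 counts over the group. H2bc4 had 12 and 9 counts in standard RNA-seq and 100 and 60 in SMART-seq (3.08 ± 1.07, adjusted p = 0.0382). H2ac8 rose by 4.23 ± 1.01 (adjusted p = 0.00761), H2ac23 by 2.76 ± 0.91 (adjusted p = 0.0303) and H1f2 by 1.60 ± 0.55 (adjusted p = 0.0357). Between DP-seq and SMART-seq at 50 pg, H2ac8 (-0.67 ± 0.88, adjusted p = 0.538) and H1f2 (-0.70 ± 0.54, adjusted p = 0.299) did not pass. Without either standard library none of these 5 genes passed (adjusted p from 0.124 to 0.299), and without SMART-seq replicate 2 the change of H1f2 was 0.95 (adjusted p = 0.124). H2bc21 was higher in DP-seq: it stood at 1.43 and 1.80 CPM in standard RNA-seq and 12.02 and 11.6 in DP-seq from 10 ng (2.97 ± 0.56, adjusted p = 0.00349; 0.0651 without standard replicate 1). H2ac6 also passed in all 3 comparisons, with 8 counts in standard RNA-seq, 23 in DP-seq from 10 ng, 71 in DP-seq from 50 pg and 34 in SMART-seq; it was named after its values were seen where counts were under 50.

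In SMART-seq against standard RNA-seq, 10 of 16 tested members were higher and 3 lower, where 29.3% of all genes were higher and 27.3% lower. By class, 6 of 9 replication-dependent genes were higher and 0 lower, and 4 of 7 replacement genes were higher and 3 lower; the medians were 2.19 and 2.89, against -0.13 over all genes. In DP-seq from 10 ng against standard RNA-seq, 4 members were higher and 3 lower (background 20.7% and 18.4%), and in DP-seq against SMART-seq at 50 pg 3 were higher and 6 lower (26.6% and 32.7%). The scaling matters here: by library totals alone the median gene moved by -1.75 in SMART-seq against standard RNA-seq, and the members split into 5 higher and 3 lower. H2az1 then rose by 3.02, H2az2 by 1.73 and H3f3b by 1.67, H2ax and H1f0 stood at -2.19 and -2.31, and H1f2 at -0.02.

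Of the histone 3′-end processing genes, 14 of 15 were tested, and 3 were higher and 6 lower in SMART-seq than in standard RNA-seq, with a median of -0.75, where 29.3% of all genes were higher and 27.3% lower. Slbp, which encodes the stem-loop binding protein, was among the higher ones (2.22 ± 0.31, adjusted p = 4.40e-04), as was Lsm10, a U7 snRNP component (3.70 ± 0.96, adjusted p = 0.0112). Among histone chaperones and exchange factors, 5 of 19 were higher and 10 lower (median -0.91). Of 16 genes of S phase and proliferation 9 were higher and 3 lower (median 0.65), among them Cdk1 (3.17 ± 0.10, adjusted p = 1.00e-07).

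The second comparison set AA100 against AA3 within each method, asking whether the higher activin dose changed histone transcripts. H2az1 was lower at the higher dose in each method: it went from 666 and 668 to 298 CPM in standard RNA-seq, from 105 to 68.3 and 85.8 in DP-seq, and from 15581 and 15209 to 10633 and 10814 in SMART-seq. In each method the AA3 and AA100 libraries did not overlap. For DP-seq this sets 1 library against 2, and the AA3 dilution pair of the same 50 pg input averaged 164 CPM. The change was -1.17 ± 0.02 in the fit of the standard libraries alone, whose p is too small for edgeR to write. A joint edgeR fit of the 10 method libraries gave -1.17 ± 0.12 (adjusted p = 0.00538), and DESeq2 on the standard libraries gave an adjusted p of 2.32e-175. The change of H2az1 was -0.42 ± 0.03 in SMART-seq (adjusted p = 0.0113, edgeR quasi-likelihood test), and it did not pass in DP-seq (-0.44 ± 0.31, adjusted p = 0.544). In SMART-seq, leaving out any of the 4 libraries ended the call of H2az1, with adjusted p from 0.0648 to 0.0915. The standard and SMART-seq changes of H2az1 differed by -0.67 ± 0.15, which did not pass (adjusted p = 0.126).

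H2az2, the paralog of H2az1, did not follow it in standard RNA-seq. It stood at 81.7 and 78.0 CPM in AA3 and 117 in AA100 by standard RNA-seq, at 27.2 and then 22.6 and 23.3 by DP-seq, and at 808 and 706 and then 534 and 539 by SMART-seq. AA100 was thus above AA3 in standard RNA-seq and below it in the other methods. The changes were 0.55 ± 0.04 (adjusted p = 2.68e-41), -0.24 ± 0.49 (adjusted p = 0.880) and -0.40 ± 0.09 (adjusted p = 0.109). Tested in the joint fit, the standard change exceeded the SMART-seq change by 1.02 ± 0.15 (adjusted p = 0.0328, where 0.853% of genes passed); the standard change alone did not pass in that fit (0.54, adjusted p = 0.0758).

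H3f3a fell in DP-seq, from 758 to 489 and 443 CPM (-0.70 ± 0.19, adjusted p = 0.0359), and in standard RNA-seq from 109 and 102 to 95.3 CPM (-0.15 ± 0.04, adjusted p = 5.35e-04; 0.167 with DESeq2). In SMART-seq it went from 711 and 728 to 514 and 570.2 CPM without passing (-0.31 ± 0.08, adjusted p = 0.137). The AA100 libraries of this comparison were lower in every method. In the DP-seq dose set, outside it, H3f3a stood higher in AA100 (238 CPM) than in AA3 (174 CPM). H3f3b moved by 0.25 ± 0.02 in standard RNA-seq (668 and 654 to 784 CPM, adjusted p = 2.02e-35), by -0.30 ± 0.15 in DP-seq (adjusted p = 0.345) and by -0.02 ± 0.04 in SMART-seq (adjusted p = 0.831). H1f10 rose in standard RNA-seq from 30.6 and 32.6 to 50.0 CPM (0.66 ± 0.06, adjusted p = 5.36e-25), and H1f0 and H2ax did not pass in any method (0.01 ± 0.03 and 0.04 ± 0.04 in standard RNA-seq).

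**Figure D4:**
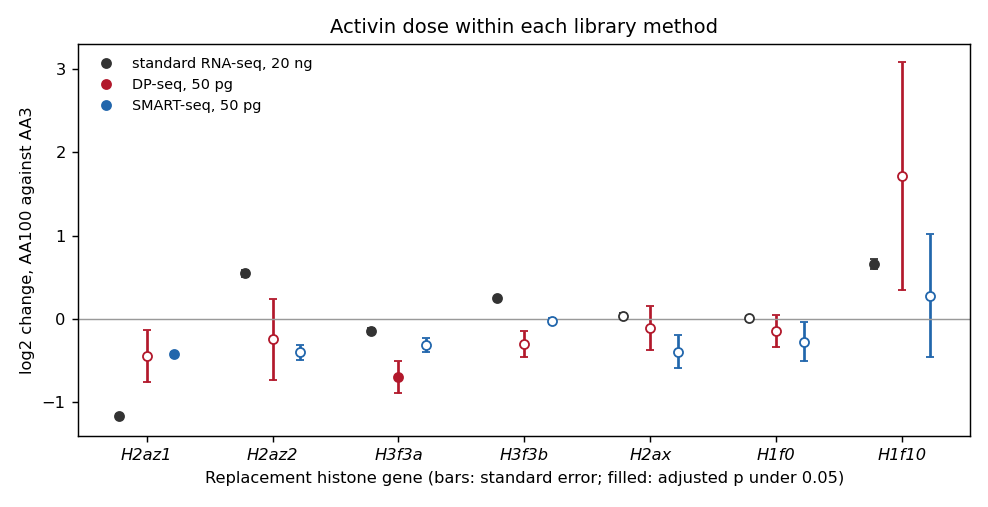
Change of 7 replacement histone genes from AA3 to AA100 (log2, vertical) in standard RNA-seq, DP-seq and SMART-seq. Points are fitted changes, bars are standard errors, and filled points have an adjusted p under 0.05 in the fit of their own method; H2az1 lies below 0 in all 3 methods and H2az2 above 0 in standard RNA-seq only among the fitted values.

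Among replication-dependent genes, H2ac23 and H1f2 moved in opposite directions in standard RNA-seq. H2ac23 had 8 and 12 counts in AA3 and 107 in AA100 (3.45 ± 0.28, adjusted p = 2.12e-32). Its SMART-seq counts were 59 and 66 in AA3 and 120 and 122 in AA100, also without overlap, and the change there did not pass. H1f2 had 125 and 108 counts in AA3 and 46 in AA100 (-1.29 ± 0.20, adjusted p = 4.24e-09), 144 and then 5 and 33 in DP-seq, and 190 and 459 and then 132 and 118 in SMART-seq. In this comparison H1f2 was thus lower in AA100 in every library pair of each method, and passed in standard RNA-seq alone. The differences between methods did not pass in the joint edgeR fit (adjusted p from 0.583 to 1.0). In the DP-seq dose set, outside this comparison, H1f2 went the other way, at 1.18 CPM in AA3 and 1.94 in AA100 (19 and 31 counts).

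By class, standard RNA-seq called 3 of 7 replacement genes higher and 2 lower and 1 of 6 replication-dependent genes higher and 1 lower, where 31.1% of all genes were higher and 31.1% lower. DP-seq called 0 of 13 members higher and 1 lower (background 2.27% and 1.16%), and SMART-seq 0 of 23 higher and 1 lower (background 0.786% and 0.568%). For replication-dependent genes the edgeR count was 0 of 6 in DP-seq and 0 of 16 in SMART-seq, with 1 and 0 at an unadjusted p under 0.05. DESeq2 called 1 member in DP-seq and 3 in SMART-seq. The AA3 standard pair differed little more than counting noise and AA100 had 1 library, so the standard errors of standard RNA-seq are small; in the joint fit, with both AA3 libraries or with either left out, H2az1 alone among the members called there kept its call.

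Other genes of histone metabolism were read in the same standard RNA-seq contrast, in which 31.1% of all genes were higher and 31.1% lower. Of 14 tested 3′-end processing genes, 4 were higher and 1 lower: Eri1, the exonuclease that trims histone mRNA ends, rose by 0.29 ± 0.05 (adjusted p = 2.07e-09), Cpsf2 fell by 0.19 on the log2 scale (adjusted p = 3.36e-06), and Slbp did not pass (-0.06 ± 0.04). Of 8 histone gene regulators 2 were higher, Ccne1 (0.46 ± 0.05, adjusted p = 8.36e-23) among them, and 2 lower, Hinfp, the H4 gene activator (-0.46 ± 0.11, adjusted p = 1.35e-04), among them, while Npat, which activates the clusters, stood at 0.02 ± 0.05. Of 19 chaperones and exchange factors, 6 were higher and 11 lower (median -0.23), with Rbbp4 at -0.70 ± 0.02, Nap1l4 at -0.71 ± 0.04, Asf1a at -0.57 ± 0.07 and Chaf1b at 0.61 ± 0.05. Of 5 other tested variants 3 were lower, among them Cenpa, the centromeric H3, which fell by 0.81 on the log2 scale. Of 16 S phase genes 11 were lower and 2 higher (median -0.18), with Cdk1 at -0.71 ± 0.04, Ccnb1 at -0.60 ± 0.03 and Pcna at -0.49 ± 0.02. The medians over these lists stand beside -0.01 over all genes. Most of these list calls were lost in the joint fit, which called 269 of 14072 genes in place of 7849 of 12605. There 0 of 15 3′-end processing genes, 0 of 8 regulators and 0 of 6 variants were called, Rbbp4 alone of 19 chaperones and exchange factors was lower (-0.70 ± 0.13, adjusted p = 0.0419), and 3 of 16 S phase genes were lower and 0 higher (Cdk1, Ccnb1 and Pcna, adjusted p from 0.0118 to 0.0426). In DP-seq and SMART-seq each, 1 of the 16 S phase genes was lower and 0 higher. Over all genes 1.16% were lower and 2.27% higher in DP-seq, and 0.568% lower and 0.786% higher in SMART-seq.

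Marker sums also differed between AA3 and AA100. Endoderm markers summed to 350.6 and 343 CPM in AA3 and 689.9 in AA100 by standard RNA-seq, 467 and then 2386 and 1920 by DP-seq, and 408 and 439.6 and then 1633 and 1787 by SMART-seq. Pluripotency and epiblast markers summed to 618 and 604 CPM in AA3 and 756 in AA100 by standard RNA-seq, 887 and then 1816 and 1694 by DP-seq, and 1099.9 and 1127 and then 1715 and 1859 by SMART-seq. Streak and mesoderm markers summed to 405 and 393 CPM and then 364 by standard RNA-seq, 504 and then 358 and 377 by DP-seq, and 453 and 503 and then 276 and 304.3 by SMART-seq. The endoderm and pluripotency sums were thus higher in AA100 in every method, and the streak and mesoderm sums lower. Gene by gene, the streak and mesoderm list was mixed. In standard RNA-seq 4 of its 9 genes were higher and 4 lower, where 31.1% of all genes were higher and 31.1% lower. Its median change was -0.09 in standard RNA-seq, 0.25 in DP-seq and -0.74 in SMART-seq. Of 7 tested neuroectoderm markers, 1 was higher and 2 were lower in standard RNA-seq, beside 31.1% of all genes in each direction. The median change of the neuroectoderm list was -0.44 in standard RNA-seq, -0.15 in DP-seq and -0.29 in SMART-seq. The S phase list summed to 4072 and 3999 CPM and then 3575 in standard RNA-seq, and to 6916 and 6951 and then 6130.3 and 6139.8 in SMART-seq. The part of cell type and cell cycle makeup in the histone changes was not tested, and in bulk libraries fewer cells of a type and less RNA per cell cannot be told apart.

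Across the activin doses themselves, no member passed. The 7 DP-seq libraries of SFM, SB, AA3, AA15 and AA100 gave H2az1 at 88.8 and 23.8, 72.5, 70.4, 43.5 and 55.9, and 47.4 CPM in that order. The SFM pair spanned all other groups. H2az2 stood at 58.7 and 22.4, 37.6, 41.9, 28.5 and 41.2, and 20.98 CPM, with AA100 the lowest library. H3f3b was the steadiest, at 767 and 750.2, 1025, 710.2, 831 and 968, and 749 CPM. H3f3a stood at 157 and 595, 341, 174, 260.0 and 186, and 238 CPM, and H2ax at 186 and 845, 157, 197, 194 and 146, and 205 CPM, each with SFM replicate 2 above all other libraries. The edgeR test of a slope over SFM, AA3, AA15 and AA100 gave -0.11 ± 0.22 per dose step for H2az1, -0.26 ± 0.20 for H2az2, -0.53 ± 0.26 for H2ax and 0.04 ± 0.14 for H3f3b. It called 0 of 13 members and 0.397% of all genes, and SB and AA100 against SFM called 0 of 13 members and 0% of all genes. At an unadjusted p under 0.05 the members numbered 0 in each of these 3 comparisons, and DESeq2 called 0 members in each.

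The SFM pair decides these results. Without SFM replicate 2, the slope was -0.33 for H2az1 (adjusted p = 0.0482) and -0.46 for H2az2 (adjusted p = 0.0176), and AA100 lay below SFM by -0.91 for H2az1 (adjusted p = 0.0181) and -1.49 for H2az2 (adjusted p = 6.27e-05). Without SFM replicate 1, AA100 lay above SFM for H2az1 by 0.97 (adjusted p = 0.00350) and the slope of H2az1 was 0.18. Replication-dependent genes summed to 9.84 to 16.1 CPM over these 7 libraries and replacement genes to 1373 to 2577 CPM.

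The dilution series asked how far down in input the DP-seq readout held. H3f3b was higher at 100 pg and less than at 1 ng and more: 1627 and 1779 CPM at 10 ng, 2358 and 2546 at 1 ng, 6476 and 6976 at 100 pg, 6058 and 5971 at 50 pg, 8726 and 7595 at 10 pg, and 6086 and 5575 at 1 pg. All 8 libraries of 100 pg and less lay above all 4 of 1 ng and more. Against 10 ng the change was 2.01 ± 0.14 at 100 pg (adjusted p = 2.29e-04), 1.84 ± 0.14 at 50 pg (adjusted p = 3.70e-04), 2.35 ± 0.14 at 10 pg (adjusted p = 4.54e-05) and 2.03 ± 0.14 at 1 pg (adjusted p = 5.81e-05), and it did not pass at 1 ng (0.49 ± 0.13, adjusted p = 1.0).

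H3f3a moved the same way: 163 and 57.6 CPM at 10 ng, 214 and 236 at 1 ng, 801 and 729 at 100 pg, 929 and 831 at 50 pg, 794 and 772 at 10 pg, and 940.4 and 404 at 1 pg. Here too the libraries of 100 pg and less lay above the rest. The change was 2.81 ± 0.53 at 100 pg (adjusted p = 0.0425), 3.00 ± 0.53 at 50 pg (adjusted p = 0.0338) and 2.90 ± 0.53 at 10 pg (adjusted p = 0.0162). The call of H3f3a was lost with any 1 of the 4 libraries compared left out at 100 pg (adjusted p from 0.0852 to 0.391) and at 50 pg (0.0624 to 0.2999), and at 10 pg without 10 ng replicate 2 (2.21, adjusted p = 0.129).

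H1f0 and H2ax also lay higher in every library of 100 pg and less than in those of 1 ng and more. From 1 ng to 100 pg the mean of H1f0 went from 291 to 569 CPM and that of H2ax from 142 to 378. Against 10 ng neither passed at 100 pg (0.95 ± 0.28 and 1.48 ± 0.49, edgeR adjusted p = 0.175 and 0.233). H1f0 stood at 331 and 267 CPM at 10 ng, 642 and 530.4 at 10 pg (1.05 ± 0.28, adjusted p = 0.0477) and 1247 and 1840.1 at 1 pg (2.62 ± 0.29, adjusted p = 8.44e-04). H2ax went from 132 and 145 CPM at 10 ng to 1207 and 323 at 1 pg (2.71 ± 0.51, adjusted p = 0.00635), with 1.39 without 1 pg replicate 1. Without either 10 ng library, H2ax at 1 pg and H1f0 at 10 pg did not pass (adjusted p from 0.0614 to 0.3499), nor did H1f0 without 10 pg replicate 1 (0.89, adjusted p = 0.106). H2az1 went from 120.4 and 86.3 CPM to 117 and 1024.5, and its change of 2.73 ± 0.79 (adjusted p = 0.0334) rested on 1 pg replicate 2: without it the change was 0.33, and without either 10 ng library it did not pass (adjusted p = 0.131 and 0.197). The 1 pg pair differed by more than any other pair of the series (chi-square per degree of freedom 71.5, against 5.71 to 40.0).

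At 100 pg and at 50 pg, 2 of 11 tested members were higher and 0 lower, where 0.906% and 0.924% of all genes were higher and 0.0832% and 0.157% lower. At 10 pg 3 were higher and 0 lower (background 3.53% and 4.83%, median change over all genes -0.12). At 1 pg 7 were higher and 0 lower (background 8.96% and 15.9%, median change over all genes -1.43). The 2 replication-dependent genes among those 7, H1f2 and H1f3, had 19 and 11 counts at 1 pg and were named after their values were seen. At 1 ng edgeR called 0 members (1 at an unadjusted p under 0.05) and 0% of genes, and DESeq2 called 1 member. Only 4 replication-dependent genes had counts enough to be tested, and 3 to 20 of the 61 were detected in a library. The paired-end library of about 100 pg, not tested, gave H3f3b at 1548 CPM, H3f3a at 398 and H2az1 at 30.9, all below both single 100 pg libraries.

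**Figure D5:**
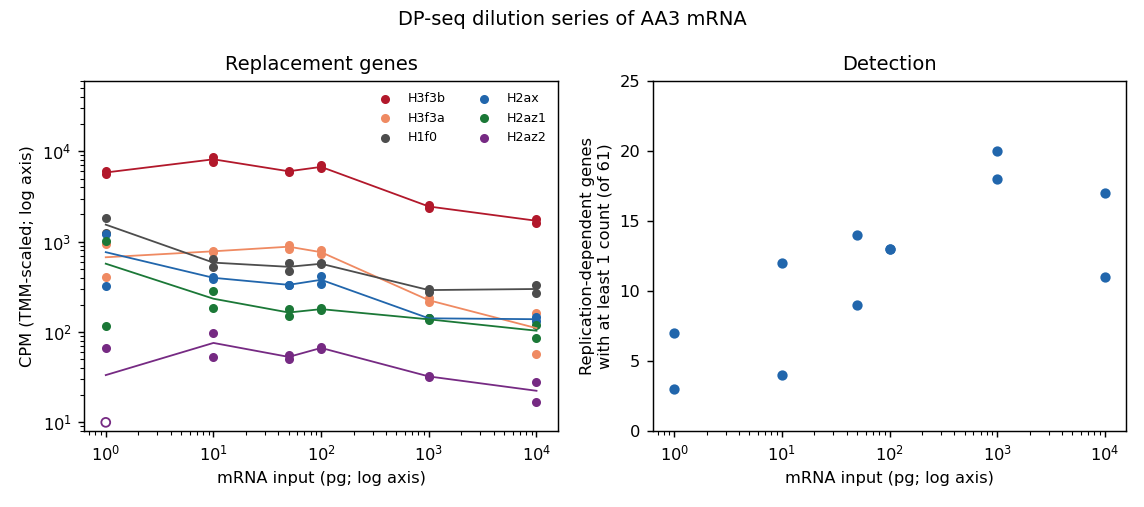
Left, level of 6 replacement histone genes (CPM scaled by TMM, log axis) against mRNA input in pg (log axis) for the 12 libraries of the dilution series; points are libraries, lines join the group means, and the open circle marks H2az2 at 0 counts in 1 pg replicate 2. Right, number of the 61 replication-dependent genes with at least 1 count per library, 3 to 20. H3f3b, H3f3a, H1f0 and H2ax step up between 1 ng and 100 pg.

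The balance of the replacement genes differed with the 3 primer sets, each compared with the average of the 4 usual-primer libraries of 1 ng and 100 pg. The input of the primer-set libraries lay between these, and no usual-primer library shared it. Primer set and input were therefore not separated by these tests. The usual libraries also differed by input, with H3f3b at a mean of 2452 CPM at 1 ng and 6726 at 100 pg. H2az1 stood at 1256, 1215 and 461 CPM with sets 1, 2 and 3, against 142, 134, 185 and 174 in the usual libraries. All 3 sets lay above all 4 usual libraries, by 3.01 ± 0.09 (adjusted p = 1.16e-07), 3.07 ± 0.09 (adjusted p = 3.26e-08) and 1.68 ± 0.10 (adjusted p = 1.22e-06). H2ax stood at 341, 4.89 and 1.39 CPM, from 2307, 19 and 5 counts, against 141, 142, 343 and 414. Sets 2 and 3 thus nearly lost H2ax, with changes of -5.44 ± 0.24 (adjusted p = 2.88e-07) and -7.24 ± 0.30 (adjusted p = 1.77e-07), while set 1 gave 0.57 ± 0.12 (adjusted p = 0.00452) with its 341 CPM inside the range of the usual libraries.

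H3f3b stood at 317, 537 and 3399 CPM, against 2358, 2546, 6476 and 6976. It fell by 3.67 and 2.79 on the log2 scale with sets 1 and 2 (adjusted p = 1.17e-07 and 1.11e-07) and did not pass with set 3 (-0.13 ± 0.08, adjusted p = 0.216). H3f3a fell with all 3 sets, by 3.46, 2.45 and 2.25 on the log2 scale. H2az2 stood at 5.61, 38.9 and 134 CPM, a change of -3.03 ± 0.22 with set 1, -0.13 ± 0.17 with set 2 and 1.66 ± 0.14 with set 3. H1f0 stood at 173, 469.7 and 1097 CPM, a change of -1.22 ± 0.11, 0.33 ± 0.10 (-0.31 by library totals) and 1.56 ± 0.09, against 280.2, 302, 575 and 564 in the usual libraries. The change with set 2, whose level lay inside that range, did not pass without either 1 ng library (adjusted p = 0.104 and 0.0614). H2az1 made up 58.9%, 52.04% and 8.91% of the replacement counts with the 3 sets, against 1.21% to 11.2% in the dilution series.

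Set 1 called 3 members higher (H2ax, inside the usual range, among them) and 4 lower of 13, where 28.2% of genes were higher and 28.1% lower. Set 2 called 2 higher and 4 lower (29.4% and 34.5%) and set 3 called 3 higher and 2 lower (28.7% and 32.9%). Among 6 tested replication-dependent genes, only H1f2 with set 2 passed, at 9 counts (-1.82 ± 0.50, adjusted p = 0.0128), against 299 counts in the 4 usual libraries (adjusted p = 0.0547 without 1 ng replicate 1). Each set is 1 library, so its spread is taken from the usual pairs.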

How the data were processed

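The 33 deposited tables hold unique read counts per RefSeq transcript made by the authors, per the file headers. In 8 of them 15 values were fractional; these deposited tables were treated as estimated counts and rounded. No aligner, counting rule, RefSeq release, build or strand use is named in the sources used here, so copies and overlapping genes may share or lose reads. Of 26566 transcripts, 25857 were named by a RefSeq table and 150 by GENCODE's, and transcripts were summed to 21844 genes. Library totals ran from 427556 to 30609013 counts.

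Members, gene lists and tests were chosen with earlier results of these data known. Levels are CPM (the gene's share of the library's counts) scaled by TMM over all 33 libraries; tests scale within their own fit, so a ratio of levels can differ from a fitted change. Tests used edgeR 4.0.16 in R 4.3.3 (filterByExpr by group, minimum count 10 and minimum total 15, TMM, robust quasi-likelihood, Benjamini-Hochberg at 0.05), with DESeq2 1.42.0 as an alternative, and were tested on simulated data. A ± value follows a log2 change as its standard error and a level as its SD over n libraries. The method comparisons shared 8 libraries, the dilution comparisons 12, and the differences between methods in dose response came from a joint fit of 10 libraries. A group of 1 library is assumed to vary like the others in its fit. Named members are replacement genes with at least 100 counts, the 12 replication-dependent genes highest in standard RNA-seq, and up to 3 members a direction and comparison that reach 50 counts in the higher group; of the other lists, up to 4 genes a comparison. A floor of 3 counts stands for a group at 0. Same-numbered libraries did not deviate together (correlations from -0.03 to 0.03 in the dilution, method and SMART-seq sets; -0.23 between SFM and AA15), so fits have no replicate block. Alternatives were other scaling, no filter, transcripts in place of genes, DESeq2, the block, a joint fit and each library left out; library totals without scaling and crossed numbers were added after the data were seen.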

Additional observations from a re-analysis of the deposited data

Results flagged for a closer look

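The change of H2az2 with activin dose differed between standard RNA-seq and SMART-seq: its AA100 against AA3 change was 1.02 log2 units higher in standard RNA-seq than in SMART-seq (SE 0.15, adjusted p = 0.0328, edgeR quasi-likelihood joint fit), with 1 and 2 AA100 libraries. The standard change minus the DP-seq change (0.77, adjusted p = 0.115) and the DP-seq change minus the SMART-seq change (0.24, adjusted p = 0.569) did not pass. This test of the difference was added to the comparisons within methods. No group has as many as 4 libraries, so single libraries were not assessed against their group.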

How the results depend on the processing

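Over 76 pairs of a comparison and a named member, 627 refits kept direction and call, 85 lost the call, 11 gained it and 6 changed sign. By library totals alone the sign changed for H1f2 in SMART-seq against standard RNA-seq (-0.023), H1f0 with primer set 2 (-0.31) and H3f3b with dose in SMART-seq (0.032). Without SFM replicate 1 the slope of H2az1 was 0.18 and that of H2ax -0.70, and AA100 against SFM gave 0.97 for H2az1; without SFM replicate 2 these were -0.33, 0.0094 and -0.91. The cause was not tested.

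The number of members called changed by over 1.5 times as follows. The joint fit called 1 member with dose in standard RNA-seq (269 genes, against 7849) and 2 in SMART-seq, where DESeq2 called 3 (575 genes higher and 560 lower, against 90 and 65). Library totals gave 8 members in SMART-seq against standard RNA-seq, and 1 at 100 pg and at 50 pg, as did DESeq2's size factors in edgeR. DESeq2 called 1 at 1 ng and 5 at 10 pg. Where single libraries were left out (below), the standard and DP-seq dose contrasts were refitted in the joint fit. SMART-seq was refitted on its own libraries, so these counts also differ by model. The share of all genes called in each of those refits is not given here. The counts with libraries left out therefore show how far the calls move and are no result about the members.

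With libraries left out singly, the calls were 0 to 2 for the dose slope, 1 to 7 for SB and 2 to 6 for AA100 against SFM. Within methods they were 1 in standard RNA-seq, 3 in DP-seq and 0 in SMART-seq with dose. Between methods they were 4 to 7 (DP-seq from 10 ng against standard), 5 to 14 (SMART-seq against standard) and 8 to 12 (DP-seq against SMART-seq). In the dilution series they were 0 at 1 ng, 1 at 100 pg, 1 at 50 pg, 1 to 4 at 10 pg and 3 to 7 at 1 pg, and for primer sets 1, 2 and 3 they were 6 to 10, 4 to 8 and 5 to 7.

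The samples share only a replicate number. With the replicate block, 0 members were called with dose in SMART-seq (H2az1 adjusted p = 0.0579), 2 at 10 pg, 5 at 1 pg and 0 in the dose set. With SFM and AA15 numbers crossed, 0 members were called in the dose slope, SB and AA100 comparisons, and 13 genes higher and 27 lower in the slope.

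Depth limits the replication-dependent genes. By library totals without TMM scaling, a count of 0 allows up to 0.288 CPM in standard replicate 2 of AA3, counting error only. In the shallowest 1 pg library it allows up to 7.02 CPM. The TMM factor was 1.92 in that standard library and 0.701 in that 1 pg library. On the scaled levels used elsewhere, the bound is thus lower in the standard library and higher in the 1 pg library.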
